A study of Mus musculus with 26 samples.

Results

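IgG2 heavy-chain transcripts were followed through B cell receptor libraries of mouse skin, spleen and lymph node. IgG2 (IGHG2 in the tables) was 1 of the 7 constant genes to which the deposited tables assign sequences, and its members were all sequences listed with that constant gene. They numbered 191860 of 2095280 sequences, and carried 427149 of 4007742 copies (10.7%). A copy is the abundance value listed for each sequence, and neither the labels nor the headers say whether it counts molecular identifiers or reads. Sequences alike in V gene, J gene and junction nucleotides were taken as 1 clonotype, which gave 133277 IgG2 clonotypes of 1674869 in all, with clonotypes counted in each replicate.

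All mice of the skin, spleen and lymph node groups were wild type (WT) and had been associated with Staphylococcus epidermidis, a commensal of the skin surface. The 3 groups therefore differ in tissue and not in genotype or treatment, and no group without the bacterium was analysed here. Each tissue had 4 biological replicates of 2 technical libraries. A positive control, WT B cells with no tissue or treatment named, had 1 replicate of 2 technical libraries, so that 26 libraries were read in all. Library titles gave the tissue, since the tissue field names ear skin for libraries titled spleen or lymph node too. Strain, age and sex are not given in the sources used here, nor whether equal replicate numbers mark the same mouse. The p-values below therefore measure only the spread between these samples. Depth was 4976 to 7495 copies per replicate in skin, 162168 to 1362176 in spleen, 93191 to 228065 in lymph node and 645566 in the positive control. No transcripts of other cell types were read, so the labelled B cell identity could be checked only by the presence of heavy-chain sequences. In bulk RNA, fewer IgG2 cells and less IgG2 RNA per cell cannot be told apart.

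An antibody heavy chain is built from rearranged V, D and J segments, whose join (the junction) encodes the third complementarity-determining region, CDR3. A B cell first makes IgM and IgD. After activation, class switch recombination can place the same V region in front of another constant gene, and somatic hypermutation can change bases of the V region. In mice the IgG2 subclasses are encoded by Ighg2b and by the allelic genes Ighg2a and Ighg2c. IgG2a and IgG2c are known for switching driven by interferon gamma, and the subclasses activate Fc receptors and complement. The primer for IgG2 covered the subclasses together, so they were not separated. On the mm10 build (GRCm38.p6) RefSeq places the constant regions of Ighg2b at chr12:113304314-113307933 and of Ighg2c at chr12:113287389-113288932, downstream of Ighg1 and upstream of Ighe and Igha in the order of the minus-strand locus.

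The junctions of all 10 IgG2 clonotypes of skin are shown because the skin results rest on them alone. Each is given 5′ to 3′ from the conserved cysteine codon to the conserved tryptophan codon, which stand in lower case, and the capitals mark CDR3.
Skin 1, IGHV7-3 with IGHJ2: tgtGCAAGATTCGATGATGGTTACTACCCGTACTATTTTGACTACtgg
Skin 1, IGHV9-3 with IGHJ3: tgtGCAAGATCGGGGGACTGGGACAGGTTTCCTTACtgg
Skin 2, IGHV1-64 with IGHJ4: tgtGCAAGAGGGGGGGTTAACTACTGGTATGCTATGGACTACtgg
Skin 2, IGHV1-53 with IGHJ4: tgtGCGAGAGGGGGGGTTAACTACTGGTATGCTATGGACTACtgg
Skin 2, IGHV14-4, IGHV1-66 and IGHV1-82, each with IGHJ4: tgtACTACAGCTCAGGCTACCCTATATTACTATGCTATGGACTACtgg
Skin 2, IGHV2-9 with IGHJ1: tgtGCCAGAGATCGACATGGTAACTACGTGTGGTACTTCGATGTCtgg
Skin 2, IGHV9-3 with IGHJ2: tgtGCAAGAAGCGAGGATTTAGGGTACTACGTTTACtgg
Skin 3, IGHV1-26 with IGHJ3: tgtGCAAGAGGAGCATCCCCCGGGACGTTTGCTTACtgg

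The largest IgG2 clonotype that both technical libraries held is shown for each spleen, each lymph node and the positive control, to give the leading sequences that could be read in duplicate. Lymph node 4 held larger IgG2 clonotypes in 1 library only, of which the largest is the one printed above for IGHV9-3 with IGHJ2. In spleen 1 it was the IGHV1-26 clonotype printed for skin 3.
Spleen 2, IGHV1-76 with IGHJ2: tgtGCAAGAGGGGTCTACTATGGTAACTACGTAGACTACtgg
Spleen 3, IGHV1-72 with IGHJ3: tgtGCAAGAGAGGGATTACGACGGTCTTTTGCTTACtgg
Spleen 4, IGHV1-85 with IGHJ2: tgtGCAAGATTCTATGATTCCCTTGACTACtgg
Lymph node 1, IGHV1-26 with IGHJ3: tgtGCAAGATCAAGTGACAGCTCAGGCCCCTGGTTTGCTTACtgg
Lymph node 2, IGHV1-22 with IGHJ1: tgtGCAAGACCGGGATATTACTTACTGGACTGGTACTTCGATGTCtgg
Lymph node 3, IGHV9-1 with IGHJ4: tgtGTAACCCCTCTACGGGACTACtgg
Lymph node 4, IGHV1-9 with IGHJ4: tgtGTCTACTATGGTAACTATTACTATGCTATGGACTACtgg
Positive control, IGHV1-9 with IGHJ4: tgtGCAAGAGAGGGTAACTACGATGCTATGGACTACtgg

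The constant gene listed for a sequence was not always the same in both technical libraries of a replicate. Within a single library, 105 of 2095175 distinct sequences were listed under more than 1 isotype. Between the libraries of a replicate, 4767 sequences of spleen and lymph node were present in both and IgG2 in at least 1, and 3482 of them (73.0%) were IgG2 in both. In the other library the rest were listed as IgM (762), IgA (360), IgG3 (78), IgG1 (65), IgD (19) or IgE (1). The share in agreement ran from 66.0% in spleen 1 to 87.9% in lymph node 3, and was 60.5% in the positive control. Such disagreement was not limited to IgG2. The share for IgM was 75.2%, 77.4% and 76.6% in lymph nodes 2 to 4, below that for IgG2 (86.0%, 87.9% and 80.5%). In lymph node 1, every spleen and the positive control IgM lay above IgG2. IgA lay above IgG2 in every spleen and lymph node, but below it in the positive control (42.8%).

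Large IgG2 clonotypes, too, were not always listed as IgG2 in both libraries. Of 224 IgG2 clonotypes with at least 100 IgG2 copies in a library, 31 (13.8%) had 0 IgG2 copies in the other one. None of the 31 was absent there, and 18 were IgM and 13 IgA in the other library. Their total copies in the library without IgG2 were 0.690 to 1.18 times those in the IgG2 library, with a median of 0.9996. Of the 31, 22 were in spleen 2 and 3 in lymph node 4. A further 35 had some IgG2 copies in the other library, but under 10% of those in the first, while their total copies stayed within a ratio of 0.5. With these, 66 of the 224 (29.5%) were IgG2 mainly in 1 library, 46 of them in spleen 2. The limits of 10% and 0.5 were set after the data were seen. The IGHV9-3 clonotype of lymph node 4, singled out after its values were seen, was listed as 10232 IgG2 copies in library 1 and as 10068 IgM copies in library 2. It made up 43.1% of the IgG2 copies of that replicate, and its junction is the one printed for IGHV9-3 with IGHJ2 of skin 2. IgG2 was accordingly 15.0% of copies in library 1 and 6.60% in library 2 of lymph node 4. The spleen 1 clonotype of IGHV1-26 had 4718 IgG2 copies in library 1 and 15 in library 2, where it had 3164 IgA copies, and IgG2 was 11.7% and 5.82% of copies in those libraries. Results are given below without the clonotypes whose most abundant isotype differed between libraries wherever that ended a call or turned a direction.

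**Figure D1:**
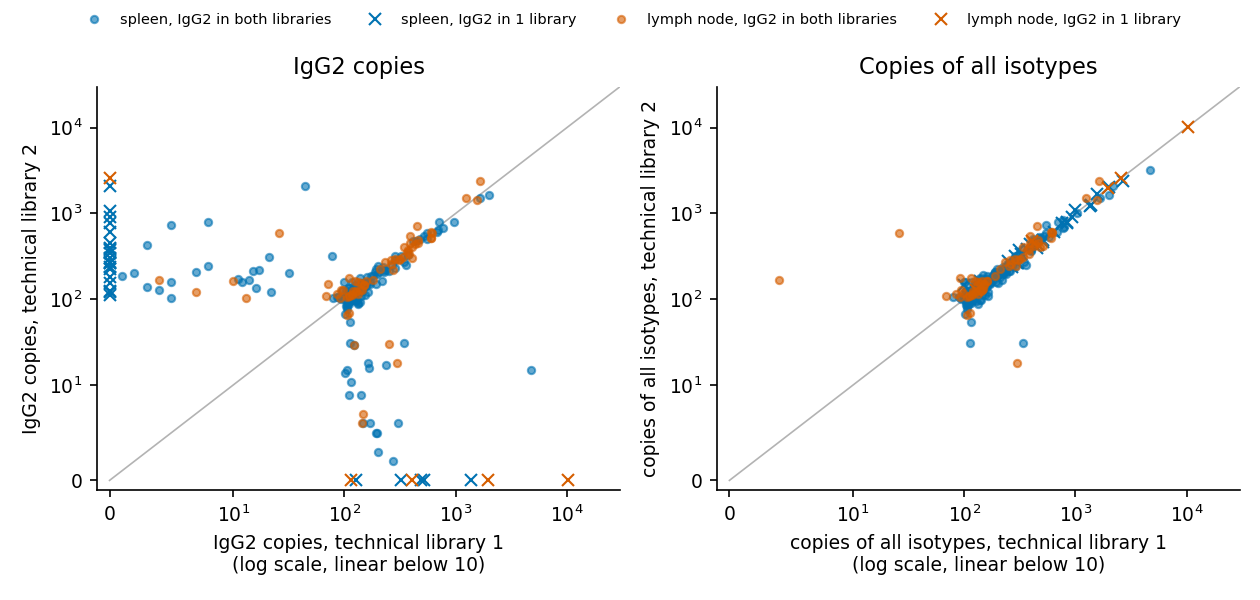
Copies of each large clonotype in technical library 1 against technical library 2, as IgG2 copies and as copies of all isotypes, on log axes that are linear below 10. Crosses mark the 31 clonotypes with IgG2 in 1 library only, which lie on the axes for IgG2 and near the diagonal for all isotypes.

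IgG2 was scarce in skin and abundant in both lymphoid organs. In skin it had 3 copies in replicate 1 (0.0560% of all copies), 56 in replicate 2 (0.747%), 1 in replicate 3 (0.0201%) and 0 of 5635 in replicate 4, where 3 copies, the limit used here for a count of 0, would be a share of 0.0532% and the exact Clopper-Pearson upper bound is 0.0654%. Spleen had 14338 (8.84%), 112144 (8.23%), 13745 (3.01%) and 22423 (3.23%) copies in replicates 1 to 4. Lymph node had 4956 (5.32%), 32062 (14.1%), 13271 (10.8%) and 23719 (10.9%). The highest skin replicate thus lay below the lowest spleen and lymph node replicates. Over all of skin, IgG2 was 60 of 23462 copies, or 0.256%, with an exact Clopper-Pearson 95% interval of 0.195% to 0.329%. Such intervals and limits cover counting error only and take copies as independent, which amplified copies of 10 clonotypes are not.

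Skin averaged 0.206% ± 0.362, spleen 5.83% ± 3.14 and lymph node 10.3% ± 3.63 (SD, n = 4 each). Skin was lower than spleen by an exact two-sided permutation test (difference -5.62 percentage points, p = 0.0286, adjusted p = 0.0400 over the 7 isotypes). At that threshold 5 of 7 isotypes differed (71.4%), and 4 of 7 (57.1%) were lower in skin. Against lymph node the difference was -10.0 percentage points (exact permutation p = 0.0286, adjusted p = 0.0333), where 6 of 7 isotypes differed (85.7%) and 5 of 7 (71.4%) were lower in skin. The p of 0.0286 is the smallest that 4 against 4 allows, and the adjusted value rests on how many other isotypes reached it too. IgG2 was not alone in being rare in skin: IgG1 had 1 skin copy and IgG3 and IgE had none, while IgA took 57.7% ± 12.7, IgM 32.4% ± 11.3 and IgD 9.68% ± 2.79 of skin copies (SD, n = 4).

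Both calls were lost when each clonotype was counted once. The differences were then -1.66 percentage points against spleen (exact permutation adjusted p = 0.200) and -0.939 against lymph node (adjusted p = 0.114). With any 1 spleen or skin replicate left out, skin against spleen had an exact permutation adjusted p of 0.05 to 0.15. Skin against lymph node lost its call without any 1 skin replicate, with a highest adjusted p of 0.08. The groups still did not overlap by copies in these subsets.

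Between spleen and lymph node the share of IgG2 among all copies overlapped (difference -4.43 percentage points, exact permutation p = 0.143, adjusted p = 0.200). None of 7 isotypes passed (0%), although IgM and IgA reached the smallest unadjusted p. Too few isotypes shared that p for an adjusted p under 0.05. Among class-switched copies, that is IgG, IgA and IgE together, the 2 organs lay far apart. IgG2 made up 20.01%, 20.7%, 9.37% and 8.24% of them in spleen replicates 1 to 4, with a mean of 14.6% ± 6.70, and 70.8%, 81.8%, 83.5% and 61.5% in lymph node, with a mean of 74.4% ± 10.3 (SD, n = 4). The highest spleen was below the lowest lymph node by a wide margin. The difference of -59.8 percentage points had the smallest exact permutation p of 0.0286, and an adjusted p of 0.229 over the 8 IgG2 measures compared, so it did not pass. A single measure at the smallest p could not have passed over 8 measures, however far apart the organs lay. IgA, the antibody class of mucosal surfaces, averaged 31.3% ± 2.83 of all copies across spleens and 2.34% ± 1.98 across lymph nodes (SD, n = 4), and it enters the denominator. In skin, IgG2 was 0.134%, 1.02%, 0.0330% and 0% of class-switched copies.

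**Figure D2:**
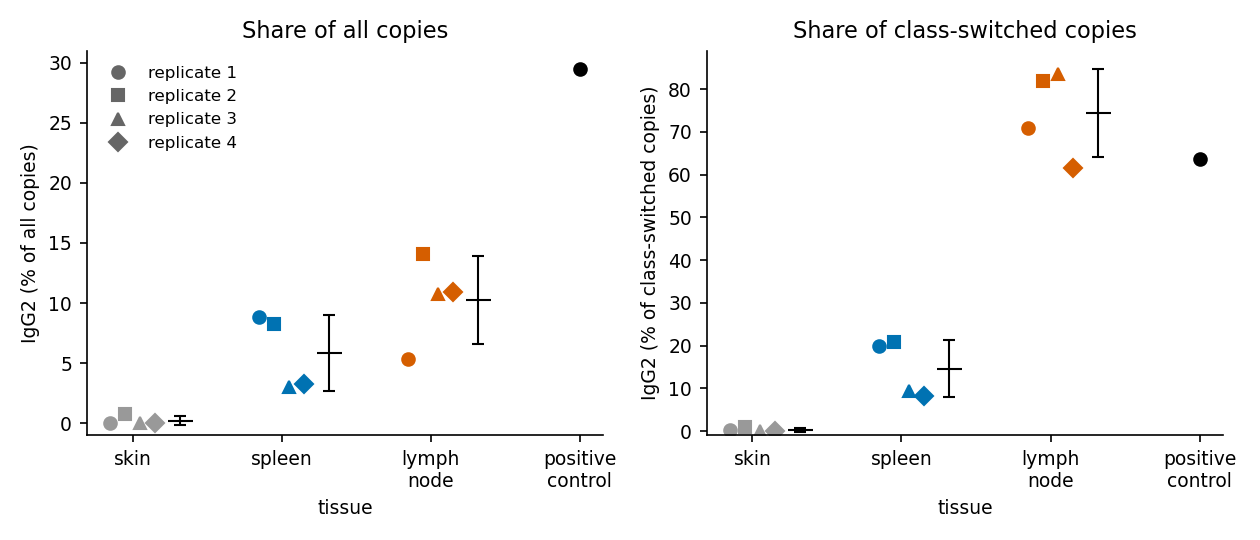
IgG2 share of all copies and of class-switched copies in percent, 1 point per replicate, with marker shapes for replicate numbers and bars for the mean and SD. Skin lies between 0 and 0.747% of all copies, and the class-switched shares of spleen (8.24% to 20.7%) and lymph node (61.5% to 83.5%) do not overlap.

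Every one of the 60 skin IgG2 copies was found in a single technical library of its replicate. Skin 2 had all of its 56 in library 1 and 0 in library 2, which held 4183 copies. No skin IgG2 clonotype had copies of another isotype in skin. The IGHV1-64 clonotype had 35 copies and the IGHV14-4 clonotype 16, so that 2 clonotypes held most of the skin total. The IGHV7-3 clonotype had 2 copies and each of the other 7 had 1.

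Some of the 10 were close relatives in sequence. The junction of IGHV1-53 differed from that of IGHV1-64 by A6G, with positions counted from 1 at the 5′ end of the 45-base junction and the IGHV1-64 base given first. The clonotypes listed as IGHV1-66 and IGHV1-82 carried the IGHV14-4 junction base for base, with V regions that differed from their named germline at 9.03% and 11.1% of aligned bases, while the IGHV14-4 sequence had 0%. Mean V mutation over skin IgG2 clonotypes was 1.70% in replicate 1, 3.87% in replicate 2 and 0% in replicate 3. With 2, 7 and 1 clonotypes these means rest on too few members for a comparison.

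Of the 10 skin clonotypes, 5 were found outside skin. The IGHV1-64 clonotype had 5 IgG2 copies in spleen 2 (3 and 2 in its libraries), and the IGHV14-4 clonotype had 13 (9 and 4), of which 11 were of the identical sequence. The IGHV9-3 clonotype with IGHJ3 of skin 1 had 25 IgG2 copies in library 2 and 3 IgA copies in library 1 of spleen 1. These 3 matches joined skin and spleen of the same number. The other 2 matched a different number with 1 skin copy against a dominant clonotype. The IGHV9-3 clonotype with IGHJ2 of skin 2 was the large clonotype of lymph node 4. The IGHV1-26 clonotype of skin 3 matched the 4733 IgG2 copies of spleen 1, of which 4659 were of the identical sequence, and 1 copy in spleen 4. Whether single copies carried between libraries took part in these matches was not tested.

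A few clonotypes held much of the IgG2 of most spleens and lymph nodes. The 10 largest took 55.1%, 15.0%, 51.2% and 19.2% of IgG2 copies in spleen replicates 1 to 4, and 74.9%, 36.8%, 69.3% and 74.8% in lymph node. The single largest took 33.0%, 2.81%, 26.5% and 3.12% in spleen and 55.4%, 9.34%, 30.3% and 43.1% in lymph node. For spleen 1 and lymph node 4 these values rest on library 1. The spleen 1 clonotype was 48.5% of IgG2 copies in library 1 and 0.325% in library 2, where the largest, another clonotype, took 15.9%. The lymph node 4 clonotype was 61.3% in library 1 and 0 in library 2, where another took 36.8%, and the largest held by both libraries was 3.55% of the total. Spleens 2 and 4 were the least dominated of the tissue replicates, and the ranges of both organs overlapped. The positive control was far more even, with 0.927% of IgG2 copies in the 10 largest of 103635 clonotypes.

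IgG2 clonotypes numbered 926, 17872, 1944 and 3588 in spleen and 394, 2683, 914 and 1311 in lymph node. At an equal 4956 IgG2 copies, the lowest total among spleens and lymph nodes, spleen was expected to show 504, 1870, 983 and 1303 distinct clonotypes and lymph node 394, 722, 503 and 412. Only spleen 1 fell inside the lymph node range. The positive control gave 4534 at that depth. The mean difference of 657 clonotypes had an exact permutation p of 0.0571 and an adjusted p of 0.229. Copies per IgG2 clonotype were 15.5, 6.27, 7.07 and 6.25 in spleen and 12.6, 12.0, 14.5 and 18.1 in lymph node (log2 difference -0.80, exact permutation p = 0.114, adjusted p = 0.229). The share of the 10 largest differed by -28.8 percentage points (exact permutation p = 0.114, adjusted p = 0.229), and by -26.9 without the clonotypes whose isotype differed between libraries. With 4 replicates a side, none of these measures passed.

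The largest clonotypes that both libraries held carried 699 to 4733 IgG2 copies in spleen and 843 to 4015 in lymph node. Spleen 1 was led by IGHV1-26 with IGHJ3 (4733 copies), spleen 2 by IGHV1-76 with IGHJ2 (3149), spleen 3 by IGHV1-72 with IGHJ3 (3647) and spleen 4 by IGHV1-85 with IGHJ2 (699). Lymph node 1 was led by IGHV1-26 with IGHJ3 (2744 copies), lymph node 2 by IGHV1-22 with IGHJ1 (2994), lymph node 3 by IGHV9-1 with IGHJ4 (4015) and lymph node 4 by IGHV1-9 with IGHJ4 (843). No leading clonotype was the same in any pair of replicates, and those of spleen 1 and lymph node 1 shared V and J genes but not the junction. Technical libraries split most of them evenly, as with 1651 and 1498 copies in spleen 2. V mutation of these leaders was 0% to 0.0217%, except for 3.31% in lymph node 2. In the positive control the leader, IGHV1-9 with IGHJ4, had 312 copies and 1.45% V mutation.

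**Figure D3:**
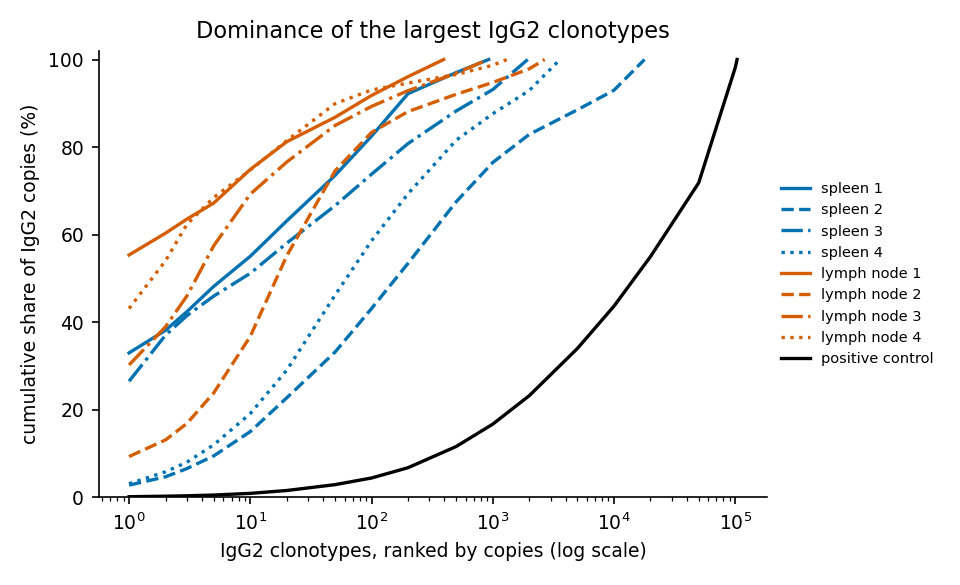
Cumulative share of IgG2 copies in percent against the rank of IgG2 clonotypes by copies (log axis), 1 line per spleen and lymph node replicate and 1 for the positive control. The lymph node lines start at 9.34% to 55.4% and the spleen lines at 2.81% to 33.0%, while the positive control starts at 0.164%.

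IgG2 clonotypes were larger than those of most isotypes in the same replicate. Over the 8 spleen and lymph node replicates, copies per clonotype were 4.89-fold those of IgM (log2 2.29 ± 0.58, SD) and higher in 8 of 8 (exact sign-flip permutation p = 0.0078, adjusted p = 0.00977). These and the other sign-flip tests take spleen and lymph node of a number as separate units, although equal numbers shared IgG2 clonotypes, as described further on. With the 4 numbers as units the smallest exact permutation p is 0.125, and none of these calls passes. Over the 8 replicates the same direction in 8 of 8 and the same adjusted p held against IgD (6.20-fold), IgG3 (3.52-fold) and IgG1 (2.34-fold) in the exact permutation test. Against IgA the ratio was 1.02-fold and higher in 4 of 8 replicates (exact permutation p = 0.930), with a log2 ratio from -1.16 to 1.31. It averaged -0.68 ± 0.55 over spleens and 0.74 ± 0.82 over lymph nodes (SD, n = 4), and the difference between organs did not pass (exact permutation p = 0.0571, adjusted p = 0.189). Leaving out clonotypes whose isotype differed between libraries turned the log2 ratio to IgA to -0.12.

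V mutation, the percent of aligned V bases that differ from the named germline gene over a median of 144 bases, was higher in IgG2 than in IgM and lower than in IgA. IgG2 clonotypes, each counted once, averaged 1.61%, 1.96%, 1.86% and 1.90% in spleen replicates 1 to 4 and 1.20%, 2.16%, 2.42% and 1.63% in lymph node. Mean levels were 1.83% ± 0.153 in spleen and 1.86% ± 0.546 in lymph node (n = 4, SD). The 2 organs differed by -0.02 percentage points (exact permutation p = 0.943), and lymph node was the more spread. IgM averaged 0.587% in spleen and 0.497% in lymph node, IgD 0.653% and 0.547%, IgG3 1.74% and 1.53%, IgG1 2.64% and 1.95%, and IgA 3.17% and 2.35%.

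Over the 8 replicates the difference to IgM was 1.30 percentage points and to IgD 1.24, both with IgG2 higher in 8 of 8 (exact permutation adjusted p = 0.0130). The difference to IgA was -0.915, with IgG2 higher in 0 of 8 (exact permutation adjusted p = 0.0130). Against IgG1 it was -0.453 (higher in 1 of 8, exact permutation adjusted p = 0.0684) and against IgG3 0.209 (higher in 6 of 8, exact permutation adjusted p = 0.125), and neither passed. IgG1 did pass in the exact permutation test with technical library 1 (-0.535, adjusted p = 0.0391), at least 2 copies (-0.730, 0.0293), lineages (-0.301, 0.00977), copies as weights (-1.40, 0.0130) and without lymph node 3 (-0.589, 0.0195). IgG3 passed over lineages (0.251, exact permutation adjusted p = 0.0234) and, with IgG2 now the lower, with copies as weights (-0.408, adjusted p = 0.0130). None of these differences passed a test of spleen against lymph node, with a lowest exact permutation adjusted p of 0.189.

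Among IgG2 clonotypes the large ones were the least mutated on average over replicates. In spleen, V mutation fell along the size classes from 2.04% ± 0.144 for single-copy clonotypes to 1.66% ± 0.246 at 2 to 9 copies, 0.993% ± 0.194 at 10 to 99 and 0.537% ± 0.306 at 100 or more (SD, n = 4). In lymph node the same classes averaged 2.03% ± 0.492, 1.601% ± 0.598, 1.47% ± 0.719 and 1.10% ± 0.840 (SD, n = 4), with a wider spread. In lymph node 2 the largest class (1.57%) lay above the class of 10 to 99 copies (1.51%). Clonotypes with no V mismatch rose from 27.7% ± 2.83 of the single-copy class to 77.5% ± 15.4 of the largest class in spleen (SD, n = 4). In lymph node they rose from 24.4% ± 4.85 to 60.3% ± 29.7. The large classes include clonotypes listed as IgG2 mainly in 1 library, whose part in these means was not tested. The same classes of IgA averaged 3.29%, 2.997%, 2.81% and 3.49% in spleen and 2.38%, 2.25%, 2.67% and 1.66% in lymph node. IgM averaged 0.758%, 0.336%, 0.434% and 0.951% in spleen and 0.719%, 0.243%, 0.442% and 0.248% in lymph node, so that in lymph node the largest class lay below the single-copy class for all 3 isotypes. These class means are a description, without a test. A clonotype needs an identical junction, so a lineage with mutations in its junction counts as several smaller clonotypes. The part of that in the fall with size was not tested. Single-copy clonotypes, in which an error in 1 read or molecule counts in full, made up 56.1% to 75.5% of IgG2 clonotypes in spleen and lymph node.

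Weighting by copies expressed the same difference in 1 number per replicate, a measure that was not planned but chosen once values were known. The copy-weighted V mutation of IgG2 was 0.405%, 1.18%, 0.609% and 1.03% in spleen and 0.233%, 1.62%, 1.18% and 0.403% in lymph node. It lay below the clonotype mean in 8 of 8 replicates, by -1.01 percentage points on average, with a range of -1.25 to -0.550 (exact sign-flip permutation p = 0.0078, adjusted p = 0.0234 over 6 isotypes). Without single-copy clonotypes the gap was -0.742, and without the 10 largest clonotypes of each replicate -0.489, both past the threshold in the exact permutation test (adjusted p = 0.0469 and 0.0156). For IgA the gap was -0.194 (exact permutation adjusted p = 0.480), for IgM -0.0479 and for IgG1 -0.0703. The means of IgA and IgM joined unlike organs: IgA had 0.193 ± 0.231 in spleen and -0.581 ± 0.331 in lymph node, and IgM 0.0396 ± 0.252 and -0.135 ± 0.0277 (SD, n = 4), each below 0 in 1 of 4 spleens and 4 of 4 lymph nodes. IgG2 had -1.03 ± 0.237 and -0.998 ± 0.324. IgD was lower too in 8 of 8, by -0.144, and passed like IgG2 (exact permutation adjusted p = 0.0234). IgG3 had -0.396 (exact permutation adjusted p = 0.0625).

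The gap of IgG2 lay below that of IgM in 8 of 8 replicates, with a mean difference of -0.966 percentage points (exact permutation adjusted p = 0.00977) and below that of IgA in 7 of 8, with -0.820 (adjusted p = 0.0156). By organ the difference to IgM was -1.07 in spleen and -0.863 in lymph node, and to IgA -1.22 and -0.417, where lymph node held the replicate above 0 (0.0641). Whether these differ between organs was not tested. With clonotypes of at least 2 copies the comparison with IgA lost its call (-0.661, exact permutation adjusted p = 0.0547). By copies as weights, the excess of IgG2 mutation over IgM was 0.337 percentage points and no longer past the threshold (exact permutation adjusted p = 0.0703).

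**Figure D4:**
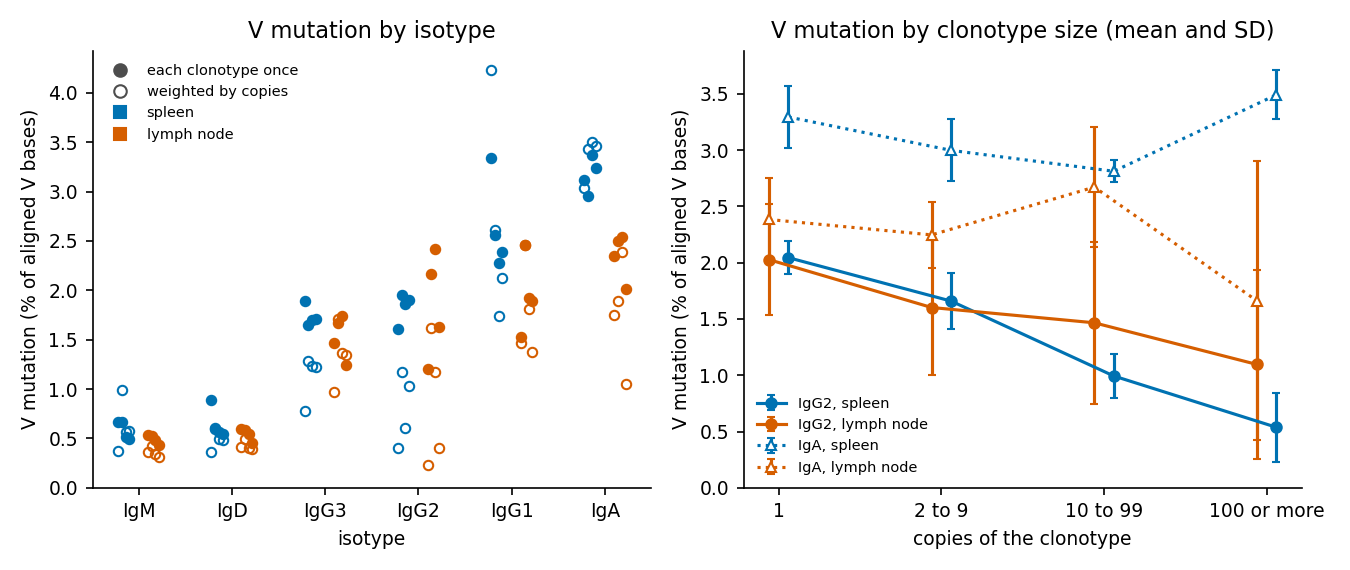
Left, V mutation in percent of aligned V bases by isotype, with filled points for each clonotype counted once and open points for copies as weights, 1 point per spleen or lymph node replicate. Right, mean and SD of V mutation by clonotype size for IgG2 and IgA, where IgG2 of spleen runs from 2.04% at 1 copy to 0.537% at 100 or more.

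Within lymph node 3 a single family of related clonotypes stood out by its share of clonotypes. When IgG2 clonotypes of equal CDR3 length and common V and J genes were joined at 85% or more identical CDR3 nucleotides, its largest lineage, IGHV1-18 with IGHJ2, held 239 clonotypes. That was 26.1% of the IgG2 clonotypes and, with 3931 copies, 29.6% of the IgG2 copies of the replicate. V mutation of its members averaged 3.97% and ran from 0% to 9.09%. In the other 7 replicates the largest lineage held 0.823% to 6.09% of IgG2 clonotypes. The same lineages held from 0.223% of IgG2 copies in spleen 1 to 26.7% in spleen 3, so by copies lymph node 3 was not set apart. By number of clonotypes the largest lineages there were 62 clonotypes of IGHV1-22 with IGHJ1 in lymph node 2 and 250 of IGHV1-26 with IGHJ3 in spleen 2.

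V gene use of IgG2 was led by the IGHV1 family, the largest V gene family of the mouse, with 73.6% ± 6.28 of clonotypes in spleen and 71.3% ± 7.26 in lymph node (n = 4, SD). The 5 most used genes in spleen were IGHV1-26 (8.48% ± 2.61), IGHV1-55 (6.05% ± 1.15), IGHV1-82 (5.31% ± 1.31), IGHV1-72 (4.498% ± 2.12) and IGHV1-53 (4.28% ± 0.514). In lymph node they were IGHV1-18 (10.96% ± 12.5), IGHV1-26 (7.69% ± 1.94), IGHV1-80 (4.504% ± 2.66), IGHV1-82 (3.88% ± 1.15) and IGHV3-6 (3.47% ± 2.22). IGHV1-18 ranged from 2.54% to 29.2% of lymph node IgG2 clonotypes, with the highest value in lymph node 3, where the lineage above used it. RefSeq (GRCm38.p6) places IGHV1-26 at chr12:114788372-114788665 and IGHV1-18 at chr12:114682632-114682925, both as V segments. Close members of a V family are near-identical in sequence, so that calls between them are uncertain.

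By edgeR's quasi-likelihood test, 0 of 40 V genes differed between spleen and lymph node IgG2 (0%), with 4 at an unadjusted p under 0.05. They were IGHV1-18 (log2 -2.49 for spleen over lymph node), IGHV1-61 (-1.26), IGHV1-53 (0.86) and IGHV1-55 (0.84), with edgeR adjusted p of 0.265 to 0.282. DESeq2 called 1 of the genes it tested, IGHV9-4 (log2 2.64). None of the 4 J genes passed either (0%), where a single gene at the smallest exact permutation p could not have passed. IGHJ3 was 26.6% ± 6.46 of IgG2 clonotypes in spleen and 18.9% ± 7.55 in lymph node (n = 4, SD, exact permutation adjusted p = 0.343).

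Against IgM of the same replicates, IgG2 used the J genes differently, in a comparison likewise chosen once values were known. IGHJ3 was 22.7% ± 7.68 of IgG2 and 9.76% ± 2.25 of IgM clonotypes, 13.0 percentage points higher in IgG2 and higher in 8 of 8 replicates (exact sign-flip permutation adjusted p = 0.0156). IGHJ4 was 27.2% ± 5.19 of IgG2 and 35.2% ± 3.52 of IgM clonotypes, a difference of -8.05 with IgG2 lower in 8 of 8 (exact permutation adjusted p = 0.0156). These were 2 of 4 J genes (50%). With unmutated clonotypes alone IGHJ3 was still 12.3 percentage points higher in IgG2. IGHJ4 lost its call with copies as weights (-8.77, exact permutation adjusted p = 0.0521). IGHJ1 (-3.13) and IGHJ2 (-1.81) did not pass (exact permutation adjusted p = 0.0833 and 0.547). IGHJ1 did pass with copies as weights (-9.77, exact permutation adjusted p = 0.0313), technical library 2 (-3.34, 0.0104) and without lymph node 1 (-3.92, 0.0208). IGHJ2 passed over lineages (-4.99, exact permutation adjusted p = 0.0313) and without lymph node 3 (-4.83, 0.0208).

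In V genes, 18 of 81 differed between IgG2 and IgM by edgeR's quasi-likelihood test (22.2%), 7 higher in IgG2 (8.64%) and 11 lower (13.6%). Those higher were 5 of 42 genes of IGHV1 and 2 of 4 of IGHV14. Those lower were 3 of 10 of IGHV5, 2 of 2 of IGHV6, 2 of 3 of IGHV7, 1 of 42 of IGHV1 and 1 each of IGHV2, IGHV10 and IGHV15. None of 2 in IGHV3, 3 in IGHV8, 4 in IGHV9 or 1 in IGHV11 passed. Over all 81 genes the median log2 fold change was -0.02, over IGHV1 it was 0.37 and over IGHV5 -0.68. The count was 11 without spleen 2, 42 over lineages, 10 by copies per V gene and 5 with unmutated clonotypes alone. DESeq2 called 30 genes, 5 higher and 25 lower in IgG2.

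The genes higher in IgG2 by edgeR were IGHV1-56 (log2 1.53), IGHV14-1 (1.47), IGHV1-62-3 (1.39), IGHV14-2 (0.90), IGHV1-61 (0.80), IGHV1-75 (0.77) and IGHV1-19 (0.73). IGHV1-56, at 0.173% ± 0.157 of IgG2 clonotypes, rested on 34 clonotypes of spleen and 7 of lymph node, and was higher in 6 of 8 replicates. IGHV1-62-3 made up 1.30% ± 0.518 of IgG2 and 0.566% ± 0.147 of IgM clonotypes and was higher in 8 of 8 replicates (SE 0.24, edgeR adjusted p = 0.000249). Its neighbour IGHV1-62-2 went the other way, with 0.672% ± 0.254 of IgG2 and 1.75% ± 0.137 of IgM clonotypes (log2 -1.28 ± 0.24, SE, edgeR adjusted p = 0.000386). RefSeq places this pair at chr12:115460999-115461431 and chr12:115446417-115446710.

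The largest falls were IGHV15-2 (log2 -1.62), IGHV7-1 (-1.60), IGHV7-3 (-1.57), IGHV6-3 (-1.34), IGHV1-62-2 and IGHV10-1 (-1.16), followed by IGHV2-2 (-0.88), IGHV6-6 (-0.86), IGHV5-4 (-0.84) and IGHV5-6 (-0.80). IGHV6-3 made up 0.844% ± 0.362 of IgG2 and 2.31% ± 0.661 of IgM clonotypes, lower in 8 of 8 replicates (edgeR adjusted p = 0.000249), and kept its call in 18 of 18 alternatives. IGHV15-2, at 0.0404% ± 0.0396 of IgG2 clonotypes, rested on few clonotypes and kept its call in 10 of 16 alternatives. IGHV7-1 rested on 25 IgG2 clonotypes of spleen and 5 of lymph node, and was higher in IgG2 in 2 of 8 replicates. IGHV1-61, IGHV14-2, IGHV5-6 and IGHV6-6 each lost their call in 4 of the 8 edgeR fits that left out 1 replicate. IGHV15-2 kept its call in 5 of those 8.

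**Figure D5:**
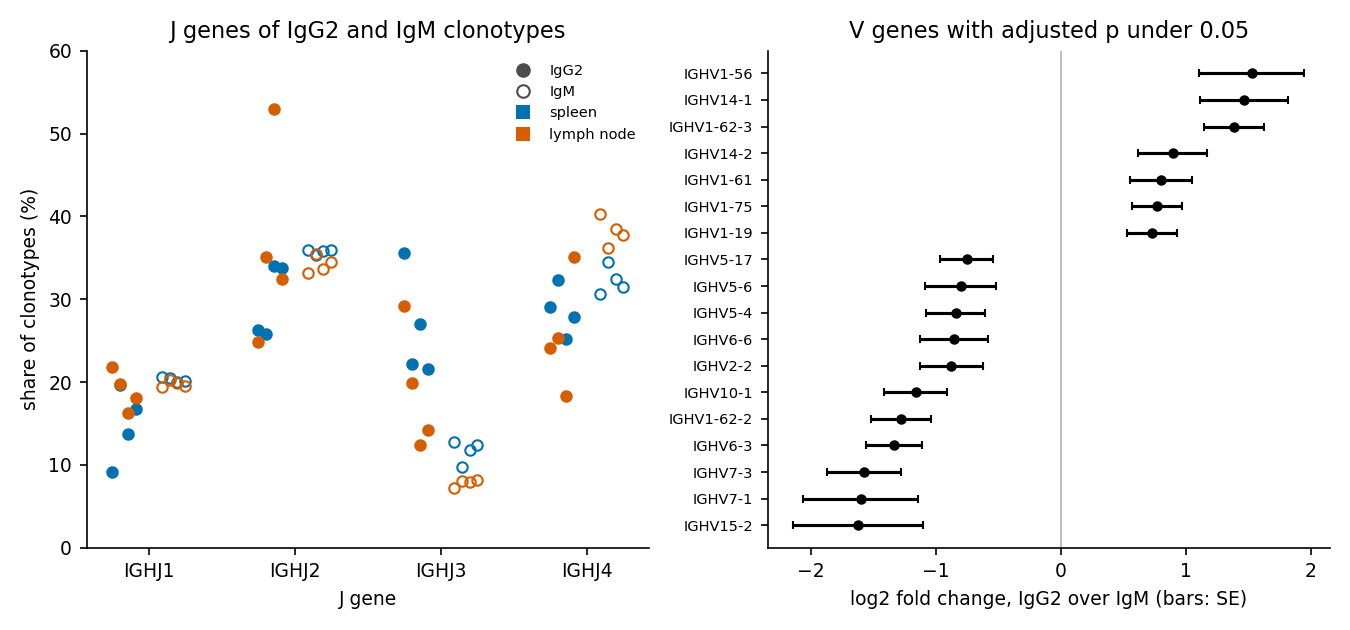
Left, share of clonotypes in percent for each J gene in IgG2 (filled) and IgM (open), 1 point per spleen or lymph node replicate, with IGHJ3 higher in IgG2 in 8 of 8. Right, log2 fold change of IgG2 over IgM with SE bars for the 18 V genes past the edgeR threshold, 7 above and 11 below 0.

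Some IgG2 clonotypes were also present as another isotype in the same replicate. Those with IgM or IgD copies made up 6.05%, 10.3%, 8.13% and 8.17% of IgG2 clonotypes in spleen and 7.87%, 8.42%, 8.75% and 11.5% in lymph node, against 8.38% in the positive control. The organs overlapped (difference -0.969 percentage points, exact permutation p = 0.429). Of these shared clonotypes 74.7% to 92.5% had both isotypes within 1 technical library, and 58.3% in the positive control. Within a library only 105 of 2095175 sequences were listed under more than 1 isotype. Overlap there thus came almost only from differing sequences with a common junction, and identical sequences of both isotypes could hardly be seen. IgA clonotypes had IgM or IgD copies less often, by 1.93 percentage points and in 7 of 8 replicates (exact permutation p = 0.0391). That call was lost without the clonotypes whose isotype differed between libraries (1.08, exact permutation p = 0.0547) and with clonotypes of at least 2 copies (2.30, p = 0.0859). Overlap of IgG2 with IgA was 5.06% ± 1.74 of IgG2 clonotypes in spleen and 0.350% ± 0.218 in lymph node (n = 4, SD). Spleen held on average 16529 IgA clonotypes and lymph node 359, and the part of that in the overlap was not tested.

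Spleen and lymph node of the same replicate number shared IgG2 clonotypes. They had 14, 241, 22 and 52 in common for numbers 1 to 4, or 3.55%, 8.98%, 2.41% and 3.97% of the smaller set. The mean was 4.73%, against 0.519% over the 12 pairs of different numbers, which ran from 0% to 4.06% (exact one-sided permutation p = 0.0417, the smallest that 24 pairings allow). Without any 1 number the smallest possible p is 0.167. Sharing of 1 or 2 copies against 100 or more made up 21 of 329 shared clonotypes within numbers (6.38%). Between numbers it made up 30 of 127 (23.6%), but that count is wider than the 12 pairs above. The shares of 6.38% and 23.6% therefore cover unlike sets and are not compared.

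The largest shared clonotype of each number is shown because it links the organs by sequence, and that of number 2 was the leader of lymph node 2. For number 4 the 3 largest are shown, in order of copies.
Number 1, IGHV1-9 with IGHJ4: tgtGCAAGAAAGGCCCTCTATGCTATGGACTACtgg
Number 3, IGHV2-3 with IGHJ4: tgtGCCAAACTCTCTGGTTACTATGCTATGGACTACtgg
Number 4, IGHV1-7 with IGHJ4: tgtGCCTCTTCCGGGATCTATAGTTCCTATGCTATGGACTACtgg
Number 4, IGHV1-75 with IGHJ2: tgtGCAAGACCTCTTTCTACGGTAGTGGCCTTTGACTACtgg
Number 4, IGHV1-82 with IGHJ3: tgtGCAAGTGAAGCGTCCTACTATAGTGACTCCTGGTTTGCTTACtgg

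Copies of the shared clonotypes were mostly unequal. The IGHV1-9 clonotype of number 1 had 183 IgG2 copies in spleen and 85 in lymph node, and the IGHV2-3 clonotype of number 3 had 6 and 1158. In number 2 the IGHV1-22 clonotype had 63 copies in spleen and 2994 in lymph node, and IGHV1-76 with IGHJ3 had 2137 and 722. In number 4 the IGHV1-7 clonotype had 616 and 2, IGHV1-75 had 122 and 230, and IGHV1-82 had 2 and 229. V mutation of the last pair was alike in both organs, with 2.12% and 2.12% for IGHV1-75 and 5.59% and 5.63% for IGHV1-82. The other shared clonotypes among the 3 largest were IGHV1-80 with IGHJ1 (169 and 5 copies) and IGHV8-8 with IGHJ4 (5 and 94) in number 1, and IGHV6-3 with IGHJ3 (1502 and 1) in number 2. In number 3 they were IGHV14-3 with IGHJ3 (9 and 933) and IGHV8-12 with IGHJ4 (1 and 323).

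The positive control had IgG2 at 29.5% of its copies and 63.7% of its class-switched copies, with 103635 clonotypes. Their mean V mutation was 1.48%, within the range of the tissue replicates. IGHV1 made up 38.6% of them, below each of the 8 spleen and lymph node replicates, while IGHV5 had 17.4%, IGHV2 14.4% and IGHV3 10.5%. The control also carried V gene names that the tissues hardly used. Names with an S after the family number, such as IGHV1S34, made up 14.0% of its IgG2 clonotypes. In spleen and lymph node replicates they made up 0.153% to 1.02%. IGHV3-2 was 4.66% of the control and 0% of both organs. The part of this difference in gene names in the family shares and in V mutation was not tested. With 1 control sample there is no test of these differences.

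Across the 8 spleen and lymph node replicates the isotypes whose centred share of copies lay nearest to that of IgG2 were IgD and IgM. The mean absolute difference of their log2 shares, each centred on its own mean, was 0.66 and 0.72, against 2.48 for IgA and 2.51 for IgE. These shares sum to a whole within a replicate, so this is a description only. A share that hardly varied would also lie near by this measure, so shares moving together are not shown.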

How the data were processed

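Heavy-chain libraries were made from RNA by a commercial repertoire service (iRepertoire), with constant-region primers that carry a 10-base molecular identifier, per the labels' protocols. The authors deposited 1 table per library, with a count of copies for each sequence beside its V, J and constant gene calls and alignments. The submitters' processing notes name the build mm10. Which program called the genes is not stated in the labels or headers used. V names were matched to RefSeq GRCm38.p6 (108 of 171).

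Technical libraries were summed per replicate. Differences of means were tested by exact two-sided permutation of 4 replicates against 4 (smallest p 0.0286) or by exact sign flips over 8 replicates, with Benjamini-Hochberg adjustment at 0.05. Clonotypes per V gene were tested with edgeR 4.0.16 (TMM, filterByExpr, quasi-likelihood) in R 4.3.3, with DESeq2 1.42.0 as an alternative. For IgG2 against IgM, both isotypes of 1 replicate entered the fit as separate samples, with a term for each replicate. That comparison was thus made within replicates. TMM factors were 0.657 to 1.23. On simulated counts edgeR recovered 65% of 20 4-fold changes between spleen and lymph node (49 V genes) and 75% for IgG2 against IgM (83 V genes), with 0 false calls in both. Those counts were drawn independently at an assumed dispersion of 0.1, without lineages of related clonotypes. The rates may therefore not hold for the data themselves.

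Named V genes were those past 0.05, up to 10 in each direction, and the 5 most used per organ. Named clonotypes were all of skin, the largest of each replicate held by both libraries, and the 3 largest shared by spleen and lymph node of a number. Members and lists were chosen with earlier results of these data known. Alternatives were each technical library alone, a minimum of 2 copies, lineages at 85% identity, copies as weights, clonotypes counted once, no filter, DESeq2, tissues paired by number, and each replicate left out. Leaving out clonotypes of differing isotype, and unmutated clonotypes alone, were added after the data were seen.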

Additional observations from a re-analysis of the deposited data

Results flagged for a closer look

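Within groups of 4 replicates, 35 sets of values were screened for 1 replicate far from the others (by Dixon's 95% critical value), and 4 stood out. Chance alone gives about 1 in 20. Skin replicate 2 was far above the other skin replicates in the IgG2 share of all copies (0.747%) and of class-switched copies (1.02%), both from the same 56 copies of 1 technical library. Spleen replicate 1 was far above the other spleens in copies per IgG2 clonotype (15.5). Lymph node replicate 2 was far below the other lymph nodes in the share of IgG2 copies held by the 10 largest clonotypes (36.8%).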

How the results depend on the processing

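With tissues paired by replicate number as a block, or the mean of both organs of a number as the unit, the values were the same but the smallest p of 4 pairs is 0.125, so no such call could pass: -5.62 and -10.0 (IgG2 share, skin against spleen and lymph node), 1.30 and -0.915 (V mutation against IgM and IgA), log2 2.29 (copies per clonotype over IgM), 1.93 (overlap against IgA), and -1.01, -0.820 and -0.966 (copy-weighted gap of IgG2, and against IgA and IgM). The V gene count against IgM was 14 with the block. Deviations of V gene use correlated at -0.206, -0.0552, 0.104 and 0.260 for equal numbers, which does not meet the limit set for pairing. Equal numbers did share clonotypes, and the labels do not say whether they mark 1 mouse.

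Each clonotype counted once gave -1.66, -0.939 and, for spleen against lymph node, 0.725 with the sign turned. Clonotypes of at least 2 copies turned the overlap with IgM or IgD (spleen against lymph node) to 3.39, and gave 2.30 for the overlap against IgA and -0.661 for the gap against IgA. Lineages turned spleen against lymph node to 0.340 for V mutation, -4.57 for unmutated clonotypes and 4.55 for the overlap, and the log2 size ratio to IgA to -0.13. Both technical libraries turned the overlap to 0.332. Without clonotypes of differing isotype the size ratio to IgA was -0.12 and the overlap against IgA 1.08. Copies as weights gave 0.337 for mutation against IgM and turned mutation against IgG3 to -0.408, IGHJ1 to 0.607 and IGHJ4 to -6.02 (spleen against lymph node, IGHJ4 -1.56 over lineages). The cause of these turns was not tested.

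V genes called against IgM were 9 with technical library 2, 42 over lineages, 10 by copies, 30 by DESeq2 and 5 with unmutated clonotypes; between organs 1 with technical library 2, no filter or DESeq2. Technical library 2 also turned IgD (skin against spleen) to 1.95 and IgG1 (spleen against lymph node) to -0.100.

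Leaving out each replicate gave -6.56 to -4.62 (skin against spleen), -11.7 to -8.78 (skin against lymph node), -0.239 to 0.168 (V mutation) and -0.0722 to 0.184 residues (CDR3 length) between organs, log2 -0.15 to 0.20 (size over IgA), 1.43 to 2.31 (overlap against IgA), 3.26 to 4.87 (sharing) and 11 to 25 V genes against IgM. IgD, IgG1 and IgE shares ranged from -1.57 to 1.90, -0.698 to 0.368 and -0.111 to 0.153.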

Other observations

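IGHJ3, which was more used by IgG2 than by IgM, ran at unlike levels in the other isotypes. It made up 28.5% ± 5.15 of IgA clonotypes in spleen and 17.7% ± 6.66 in lymph node, 24.3% ± 1.97 and 22.2% ± 6.98 of IgG1, 11.6% ± 4.86 and 11.2% ± 2.46 of IgG3, and 11.7% ± 1.36 and 7.85% ± 0.469 of IgM clonotypes (SD, n = 4 each). IgE ranged from 0% to 42.1% of clonotypes in spleen and from 0% to 57.1% in lymph node. In the positive control IGHJ3 was 26.1% of IgG2 and 22.1% of IgM clonotypes. These isotypes were not tested against each other.

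Among V mismatches, the share that changed the amino acid was 69.0% ± 1.32 in IgG2 of spleen and 68.9% ± 1.58 in lymph node, between IgM (66.9% ± 0.606 and 64.7% ± 0.494) and IgA (71.5% ± 1.77 and 69.95% ± 1.32). That order of means did not hold in every sample. In lymph node 1 IgG2 (71.1%) lay above IgA (70.2%), and in the positive control IgM (71.0%) lay above IgG2 (69.4%). The other lymph nodes and all spleens kept the order. Clonotypes with at least 5% V mutation were 4.31% to 13.3% of IgG2 clonotypes in spleen and lymph node replicates and 5.34% in the positive control.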
